A study of Bos taurus with 6 samples.

Results

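The let-7 family and its close relative miR-98 made up 19.8% to 26.2% of the known miRNA counts in each serum EV library. The family is represented by 10 of the 706 miRNAs in the count table, taken by their names: bta-let-7a-5p, bta-let-7a-3p, bta-let-7b, bta-let-7c, bta-let-7d, bta-let-7e, bta-let-7f, bta-let-7g, bta-let-7i and bta-miR-98. All 10 are among the 359 miRNAs with Bos taurus names, and the other 347 listed miRNAs were newly predicted by the study. EVs are vesicles with a membrane that cells release, and here they came from the serum of 6 mid-lactation Holstein cows, with 1 small RNA library per cow. The 3 control cows received a total mixed ration (TMR). For the 3 tested cows, whole cotton seed and soybean hull took the place of part of the alfalfa hay and corn silage. The diets were fed for 30 days, blood was drawn into tubes without anticoagulant, and the EVs were isolated with a membrane affinity kit that does not separate vesicles by the cell they come from. In such bulk libraries, a lower level from fewer vesicles of a cell type and from less miRNA per vesicle cannot be told apart.

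miRNAs guide the silencing complex to messenger RNAs, mainly by pairing of the seed, the stretch of bases 2 to 8 from the 5′ end. let-7 was found as a regulator of developmental timing in nematodes. In mammals its members restrain growth genes such as HMGA2, MYC and the RAS genes, and the protein LIN28 blocks the maturation of their precursors in stem cells. Differentiated cells carry much let-7, and it is a regular component of blood EVs. The 5′ arm of a let-7 precursor gives the guide strand, while the 3′ arm is mostly degraded.

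The sequences below are those of the deposited table, ordered by abundance, with the seed in capitals. They are shown because 9 of the 10 members share a seed and differ only outside it.
bta-let-7b: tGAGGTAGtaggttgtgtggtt
bta-let-7a-5p: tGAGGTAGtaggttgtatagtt
bta-let-7f: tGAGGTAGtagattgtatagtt
bta-let-7c: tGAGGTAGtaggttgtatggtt
bta-let-7g: tGAGGTAGtagtttgtacagtt
bta-let-7d: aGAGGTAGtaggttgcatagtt
bta-let-7i: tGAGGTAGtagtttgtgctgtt
bta-let-7e: tGAGGTAGgaggttgtatagt
bta-miR-98: tGAGGTAGtaagttgtattgtt
bta-let-7a-3p: cTATACAAtctactgtctttc

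The seed GAGGTAG is common to the 9 members from 5′ arms, and bta-let-7a-3p has TATACAA in its place. Over the first 21 positions, 13 are identical in all 9. Counted from 1 at the 5′ end, with the base of bta-let-7a-5p first, bta-let-7c differs by A19G, bta-let-7f by G12A and bta-let-7e by T9G, and bta-let-7e is 1 base shorter. bta-let-7b carries A17G and A19G, bta-let-7d T1A and T16C, bta-let-7g G12T and T18C, and bta-miR-98 G11A and A19T. bta-let-7i is the farthest from bta-let-7a-5p, with G12T, A17G, T18C and A19T. The 36 pairs among the 9 differ at 1 to 6 positions, with a median of 3, and 4 of the pairs differ at a single position. The source does not say how a read that matches several members was counted, so levels of members that lie 1 base apart are uncertain to that extent.

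The family is encoded by 12 genes in the RefSeq annotation of assembly ARS-UCD2.0. That assembly is not the build to which the study matched its reads, so it is used for names and neighbours only. bta-let-7a-5p has 3 genes and bta-let-7f has 2, so their counts cannot be assigned to a gene. Within 10 kb, MIRLET7A-1 lies with MIRLET7F-1 and MIRLET7D, MIRLET7A-3 with MIRLET7B, MIR2443 and MIR3596, MIRLET7F-2 with MIR98, MIRLET7C with MIR99A, MIRLET7A-2 with MIR100, and MIRLET7E with MIR99B and MIR125A. MIRLET7G and MIRLET7I had no other miRNA gene within 10 kb.

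The members together held 306781, 465610 and 520495 counts in the control cows against 243045, 417117 and 443255 in the tested cows. Their libraries held between 1226928 and 2088249 counts of known miRNAs. As a share of those counts, the family reached 20.0%, 23.2% and 26.2% in the control cows against 19.8%, 22.2% and 21.2% in the tested cows. The groups overlapped, since control cow 1 lay below tested cows 2 and 3, and control cow 3 lay above every other cow. The control mean was 23.1% ± 3.10 (SD, n = 3) and the tested mean 21.1% ± 1.2 (SD, n = 3), a difference of -2.02 percentage points that is smaller than the SD of the control group. The difference was -0.491 without control cow 3, -1.38 without tested cow 1 and -3.59 without control cow 1.

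**Figure D1:**
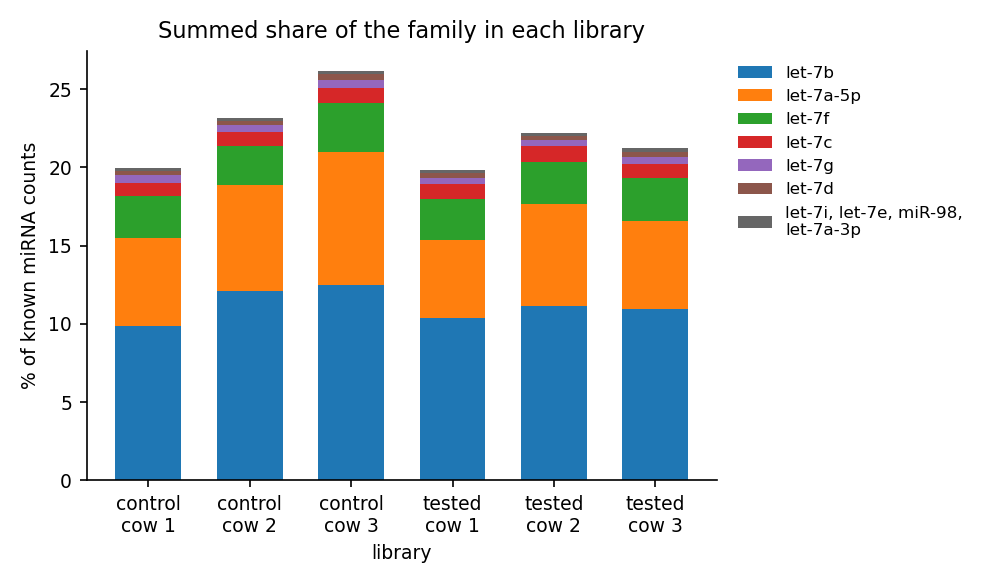
Stacked bars of the percentage of known miRNA counts (vertical axis) held by each member in each of the 6 libraries (horizontal axis), with the 4 rarest members drawn as 1 grey block. The bars end between 19.8% and 26.2%, the highest is control cow 3, and bta-let-7b with bta-let-7a-5p fill most of every bar.

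In every library the family was dominated by bta-let-7b, the most abundant member, which is encoded next to a let-7a gene. It held 151650, 242840 and 248433 counts in the control cows against 127068, 209417 and 228144 in the tested cows. Its share of the known miRNA counts was 9.86%, 12.1% and 12.5% in the control cows against 10.4%, 11.1% and 10.9% in the tested cows. The tested cows fell inside the range of the control cows. The means were 11.5% ± 1.41 (SD, n = 3) in the control cows and 10.8% ± 0.406 (SD, n = 3) in the tested cows (exact permutation test, two-sided, p = 0.5). Among all known miRNAs bta-let-7b ranked between 2 and 3.

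The next member, bta-let-7a-5p, is the sequence closest to the ancestral let-7 and the guide strand of 3 genes. Its share was 5.61%, 6.76% and 8.53% in the control cows against 5.03%, 6.49% and 5.68% in the tested cows. Control cow 3 stood above all other cows, and tested cows 2 and 3 lay within the control range (exact permutation test, p = 0.3). In edgeR, a test for counts that scales libraries by the TMM factor, its log2 fold change of tested over control was -0.35 (95% interval -0.75 to 0.05, adjusted p = 0.448). Without control cow 3 the value was -0.10, and without control cow 1 it was -0.52.

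bta-let-7f, whose genes lie beside let-7a-1 with let-7d and beside miR-98, came next. Its share ran from 2.51% to 3.10% in the control cows against 2.57% to 2.74% in the tested cows. All tested cows were thus inside the control range, and the spread over the 3 tested cows was 3.59% of their mean. bta-let-7c, encoded beside miR-99a, held 0.803%, 0.898% and 0.933% in the control cows against 0.956%, 0.976% and 0.869% in the tested cows. bta-let-7g and bta-let-7d followed with means over the 6 libraries of 0.462% and 0.296%, and for both the highest library was control cow 3.

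The first 6 places of the family were filled by the same members in all 6 libraries, with no overlap in share between any member and the next. The shares of bta-let-7b were 1.75 times those of bta-let-7a-5p on average, and the steps further down were 2.33-fold to bta-let-7f, 3.01-fold to bta-let-7c, 1.96-fold to bta-let-7g and 1.56-fold to bta-let-7d. bta-let-7i, a let-7 known to act on the receptor gene TLR4, came seventh with 0.0700% to 0.128%. Its range over the libraries met that of bta-let-7e, although it was above bta-let-7e in each of the 6 libraries. bta-let-7e and bta-miR-98 could not be ordered, since bta-let-7e was the higher in 4 of 6 libraries. The passenger strand bta-let-7a-3p was last in every library, with 0.00254% to 0.0110%. These are shares of reads among sequences of nearly the same length, without correction for the efficiency of adapter ligation, which differs between miRNA sequences.

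**Figure D2:**
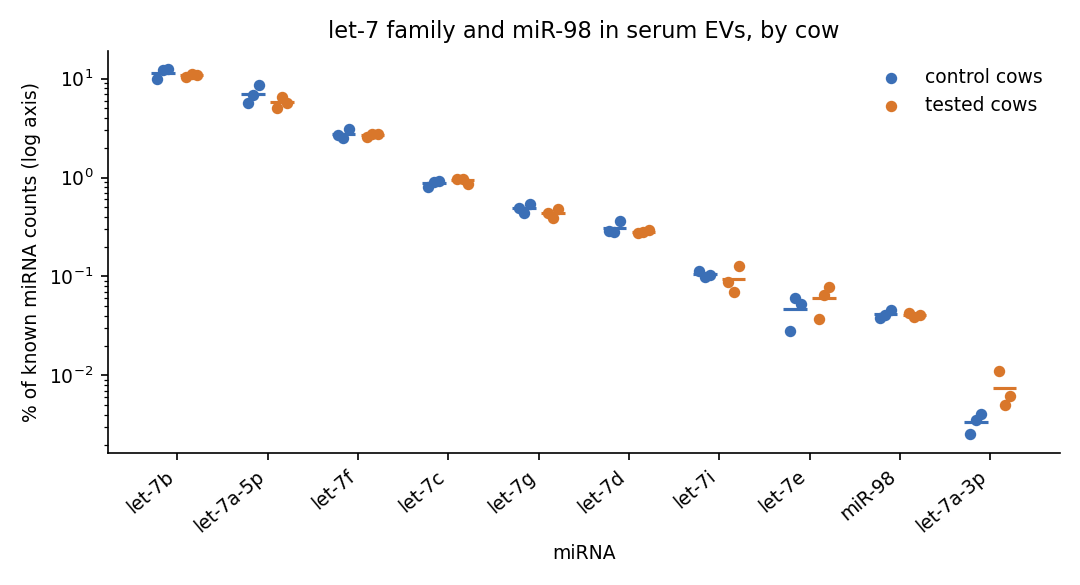
Share of the known miRNA counts in percent (vertical log axis) for each member (horizontal axis), with 1 point per cow, control cows in blue, tested cows in orange and a bar at each group mean. Levels run from 12.5% for bta-let-7b to 0.00254% for bta-let-7a-3p, and only bta-let-7a-3p has its 3 tested cows above its 3 control cows.

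The rare members differed in how much they varied between cows. On the scale of log2 CPM scaled by TMM, the SD over the 6 libraries was 0.16 for bta-miR-98, 0.18 for bta-let-7f and 0.20 for bta-let-7b. It was 0.56 for bta-let-7e, with 431, 1224 and 1041 counts in the control cows against 460, 1223 and 1635 in the tested cows. Cow 1 of each group, the pair of libraries with the fewest miRNA counts, had the lowest bta-let-7e also relative to depth, with 261 and 358 CPM against 557 to 687 CPM in the others. The part of depth in this was not tested. For bta-let-7i the SD was 0.26, and the tested cows held both its lowest level, 712 CPM in tested cow 2, and its highest, 1120 CPM in tested cow 3. bta-let-7a-3p had the widest spread with 0.72.

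**Figure D3:**
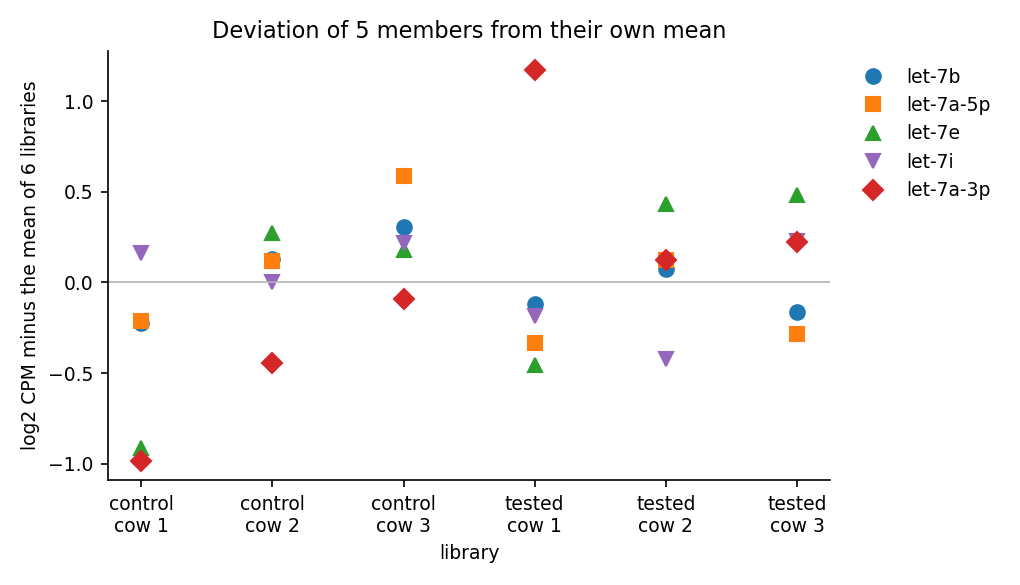
Deviation of log2 CPM (scaled by TMM) from the mean of the 6 libraries (vertical axis) for 5 members in each library (horizontal axis). bta-let-7b stays within 0.31 of its mean, bta-let-7e is lowest in cow 1 of each group, and bta-let-7a-3p runs from -0.98 in control cow 1 to 1.17 in tested cow 1.

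Tested and control cows were set against each other in edgeR over 623 miRNAs with at least 10 counts in all, which include all 10 members. A threshold was set for this comparison, which a miRNA passed when its p before adjustment was under 0.05 and its log2 fold change lay beyond 1 or -1. Of the 623, 20 passed (3.21%), and of the 10 members 0 passed. Over the 623, the edgeR p was below 0.05 for 29 before adjustment and for 1 after it. In this fit 0 members had an unadjusted p below 0.05, which some alternatives gave for bta-let-7a-5p and bta-let-7b, and in DESeq2 and limma 0 members passed the threshold. The log2 fold changes were below 0 for 7 members and above 0 for 3 (bta-let-7c changed side with RLE factors), with a median of -0.13 against 0.07 over all miRNAs tested and -0.01 over the known ones. Adjusted p-values of the members in edgeR lay between 0.448 and 0.987.

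Among the 9 members with the common seed, the log2 fold change lay between -0.35 for bta-let-7a-5p and 0.28 for bta-let-7e. The 95% intervals of bta-let-7b (-0.44 to 0.14), bta-let-7f (-0.44 to 0.21) and bta-let-7c (-0.36 to 0.42) were narrow enough to leave out a 2-fold change in either direction. Those of bta-let-7d (-0.71 to 0.30), bta-let-7g (-0.68 to 0.19), bta-let-7i (-0.89 to 0.43) and bta-miR-98 (-0.91 to 0.73) did so as well, while that of bta-let-7e (-0.64 to 1.19) did not. The sign for bta-let-7c is not settled, since the value of 0.03 became -0.04 with RLE factors. For bta-let-7a-3p the log2 fold change was 1.04, with an interval of -0.82 to 2.91 (adjusted p = 0.681 from edgeR). It was 0.63 without tested cow 1, 0.957 with DESeq2 and 0.958 with RLE factors.

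**Figure D4:**
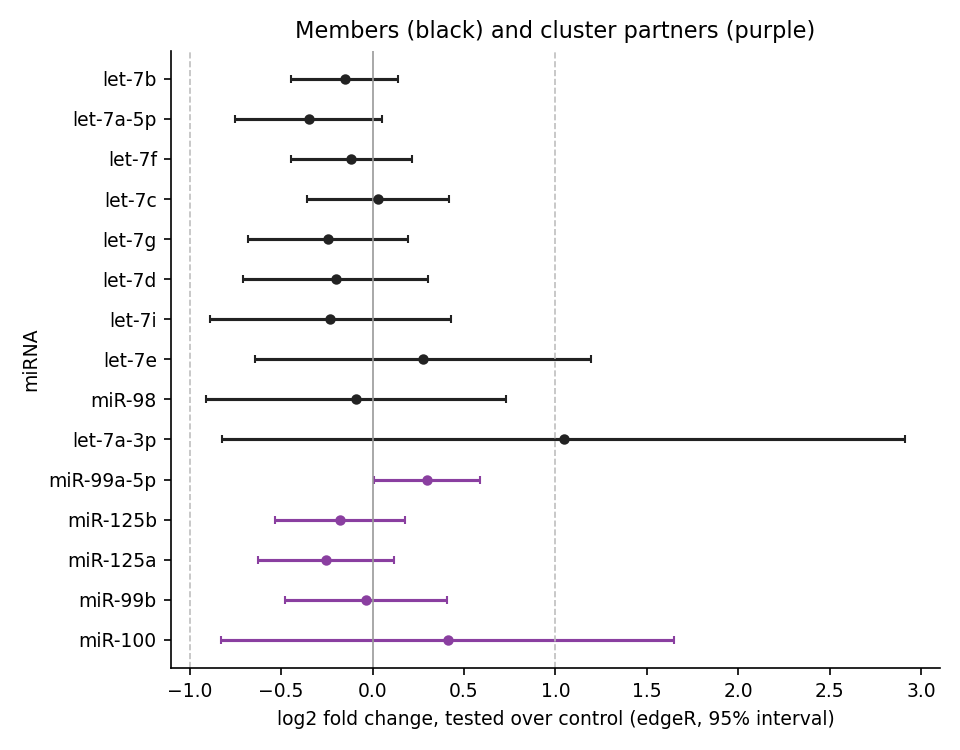
Log2 fold change of tested over control from edgeR (horizontal axis, 3 cows per group) with its 95% interval, for the 10 members in black. Purple marks 5 miRNAs encoded within 100 kb of a member, and dashed lines lie at -1 and 1. The intervals of all 10 members include 0, and the only point beyond a dashed line is bta-let-7a-3p at 1.04.

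bta-let-7a-3p, the passenger strand of let-7a, had 39, 71 and 82 counts in the control cows against 135, 94 and 130 in the tested cows, and each tested cow was above each control cow. Its share of the known miRNA counts was 0.00340% ± 0.000800 (SD, n = 3) and 0.00741% ± 0.00317 (SD, n = 3), 2.18 times as high in the tested group (exact permutation test, two-sided, p = 0.1). The difference in share was 0.00401 percentage points, and 0.00222 without tested cow 1. It is the 1 member of 10 whose shares did not overlap between the groups, a count near the background, since 8.01% of the 312 known miRNAs tested did not overlap either. On the scale of CPM scaled by TMM, 2 of the 10 members did not overlap, against 7.37% of the 312. These were bta-let-7a-3p, again higher in the tested cows, and bta-let-7g, which was lower in them, with 4605, 4261 and 5716 CPM in the control cows against 4208, 3926 and 4179 CPM in the tested cows. With 3 cows against 3, a p of 0.1 is the smallest this test can give.

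The arm ratio was computed within each library, so that the scaling of libraries does not enter. For every 100 counts of bta-let-7a-5p there were 0.0452, 0.0523 and 0.0483 counts of bta-let-7a-3p in the control cows against 0.219, 0.0770 and 0.110 in the tested cows. The control cows lay close together, at 1 passenger strand per 1912 to 2211 guide strands, and the tested cows spread from 1 per 457 to 1 per 1298. The control mean was 0.0486 ± 0.00354 (SD, n = 3) and the tested mean 0.135 ± 0.0741 (SD, n = 3), a ratio of 2.78 (exact permutation test, two-sided, p = 0.1). Tested cow 1 carried much of the size, and without it the tested mean was 0.0934, 1.92 times that of the control cows, with both remaining tested cows still above all control cows. The exact binomial 95% interval ran from 0.0408 to 0.0660 in control cow 2 and from 0.0622 to 0.0943 in tested cow 2, which had 71 and 94 counts of bta-let-7a-3p and were the closest cows of the groups. Such intervals cover the sampling of reads only. PCR copies of 1 molecule are counted as separate reads, so the counting error of molecules is not covered.

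Several measures stood apart in tested cow 1 or in tested cows 1 and 3. The red blood cell miRNAs bta-miR-451, bta-miR-486 and bta-miR-144, 3 of 3 present in every library, summed to 5.96% of the known counts in tested cow 1 and to between 0.862% and 2.84% in the other 5 cows. In the tested group this sum ranged from 0.862% in tested cow 3, the lowest of the 6 cows, to 5.96%. In the control group it ranged from 1.35% to 2.84%. The sums of the liver miRNAs, 0.202%, and of the white blood cell miRNAs, 0.0439%, were also highest in tested cow 1. Of the white blood cell miRNAs, only bta-miR-150 had its highest count there, 400. bta-miR-142-5p had 80 counts there against 147 in control cow 1, bta-miR-155 45 against 235 in control cow 3, and bta-miR-223 14 against 95 in tested cow 3. In tested cow 3 the white blood cell sum was 0.0124%, the lowest of the 6 cows. The striated muscle miRNAs, 3 of 3 listed, summed to 0.00481% in tested cow 1 and 0.00345% in tested cow 3 and to between 0.00013% and 0.000904% in the other 4 cows. Of these, bta-miR-1 had 58 and 56 counts in tested cows 1 and 3 and 1 to 17 in the others, and bta-miR-133a was at 0 in 5 of the 6 libraries. Known miRNAs made up 8.50% and 8.63% of the clean reads in tested cows 1 and 3, which had the highest arm ratios, against 15.6% in tested cow 2 and 10.8% to 18.0% in the control cows. Scaled to clean reads, bta-let-7a-3p reached 2.73, 5.55 and 7.42 RPM in the control cows against 9.36, 7.80 and 5.37 in the tested cows, and the groups overlapped (exact permutation test, p = 0.3). The part of these measures in the arm ratio was not tested.

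Both arms had at least 10 counts in all, with a count of either in every library, for 18 known miRNAs, a comparison added after the let-7a ratio had been seen. The tested cows were above the control cows in the 3p share of both arms for 2 of them (11.1%), and for 0 they were below. The pairs were let-7a and miR-23b, the latter named after its values were seen. For let-7a the 3′ arm is the rare strand, while for miR-23b it is the abundant one.

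**Figure D5:**
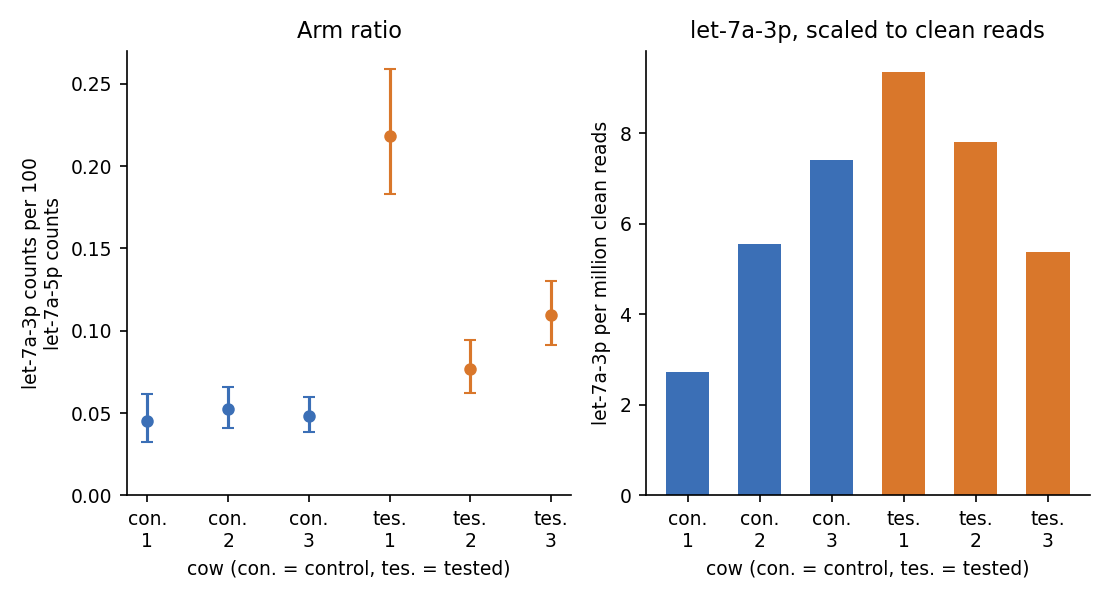
Left, counts of bta-let-7a-3p per 100 counts of bta-let-7a-5p in each cow with exact binomial 95% intervals. Right, bta-let-7a-3p in RPM, counts per 1e6 clean reads, in the same libraries. The ratio is 0.0452 to 0.0523 in the control cows against 0.0770 to 0.219 in the tested cows, while the RPM values of the groups overlap.

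Within the family, bta-let-7b held 49.8% ± 2.23 (SD, n = 3) of the members' counts under the control diet and 51.3% ± 1.05 (SD, n = 3) under the other diet (exact permutation test, p = 0.3). bta-let-7a-5p held 30.0% ± 2.35 (SD, n = 3) and 27.1% ± 1.95 (SD, n = 3) (exact permutation test, p = 0.3). The 3 leading members together held between 90.7% and 92.2% in every library. bta-let-7c took 4.02%, 3.88% and 3.57% of the family in the control cows against 4.83%, 4.40% and 4.09% in the tested cows. Each tested cow was thus above each control cow, by a narrow margin (exact permutation test, p = 0.1). Per 100 counts of bta-let-7a-5p, from which it differs by A19G, bta-let-7c had 14.3, 13.3 and 10.9 counts in the control cows against 19.0, 15.03 and 15.3 in the tested cows (exact permutation test, p = 0.1). Its share of all known counts overlapped between the groups (exact permutation test, p = 0.4). In all, 34 single measures of this kind entered an exact permutation test, and 9 of them reached the smallest possible p of 0.1, all of them forms of the bta-let-7a-3p or bta-let-7c counts.

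Ratios between members and their neighbours in the genome varied to different degrees. bta-let-7d stood at 10.6, 11.3 and 11.6 counts per 100 of bta-let-7f in the control cows against 10.7, 10.2 and 10.7 in the tested cows. bta-miR-98 ran between 1.42 and 1.65 counts per 100 of bta-let-7f over the 6 libraries. bta-let-7f, of which 1 gene lies beside a let-7a gene, ran between 36.4 and 51.04 counts per 100 of bta-let-7a-5p, and bta-let-7b stood at 1.46 to 2.06 times bta-let-7a-5p. bta-let-7e, which shares a cluster with miR-99b and miR-125a, varied between 6.10 and 16.7 counts per 100 of bta-miR-99b. bta-let-7c had 15.9, 16.005 and 23.4 counts per 100 of bta-miR-99a-5p in the control cows against 15.7, 14.95 and 14.4 in the tested cows, so that each tested cow was below each control cow (exact permutation test, p = 0.1).

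Of 6 cluster partners listed for the family, 5 were in the table and 0 of them passed the threshold, with 2 log2 fold changes above 0 and 3 below and a median of -0.03. bta-miR-99a-5p, the partner of let-7c and a miRNA that acts on the kinase gene MTOR, held 5.06%, 5.61% and 3.99% of the known counts in the control cows against 6.10%, 6.53% and 6.03% in the tested cows. Its shares did not overlap between the groups, as for 8.01% of the known miRNAs tested. In edgeR its log2 fold change was 0.30, with a 95% interval of 0.0079 to 0.59, an unadjusted p of 0.0449 and an adjusted p of 0.448. The unadjusted p was 0.404 with DESeq2, and in edgeR 0.212 with RLE factors, 0.0918 with filterByExpr and 0.0752 without a filter. It was below 0.05 with limma (0.0305), and in edgeR without factors (0.0196), with known miRNAs only (0.0223) and with the replicate block (0.0458). It ran from 0.0321 to 0.169 in edgeR with single libraries left out. bta-miR-100, encoded beside let-7a-2, had between 250 and 772 counts in single tested cows and 262 to 639 in control cows. For bta-miR-125b, bta-miR-125a and bta-miR-99b the log2 fold changes were -0.18, -0.26 and -0.03. With single libraries left out, the value ran from -0.307 to -0.0855 for bta-miR-125b and from -0.384 to -0.143 for bta-miR-125a.

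The known miRNAs outside the family whose log2 CPM profile over the 6 libraries lay nearest to that of the summed members were bta-miR-103, bta-miR-200c and bta-miR-125b. The measure was the root mean square difference after each profile was centred on its own mean, and it was 0.11, 0.11 and 0.12 for these 3, against a median of 0.36 over the 102 known miRNAs with at least 1000 counts. Among the members it was 0.05 for bta-let-7b, which is part of the sum, and 0.72 for bta-let-7a-3p. These distances describe 6 libraries that were all scaled by the same TMM factors.

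The table holds 11 miRNAs with the seed GAGGTAG, the 9 members and 2 newly predicted miRNAs. These are shown with bta-miR-2288, whose sequence also lies close to bta-let-7b, because reads of the family could be divided among them. Capitals mark bases 2 to 8.
novel336_mature: tGAGGTAGtaggttgtggt
novel50_mature: gGAGGTAGtaggttgtgttg
bta-miR-2288: aGGTAGTAggtgtgtggttt

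novel336_mature is 19 bases long and lies 1 edit from a stretch of bta-let-7b, and novel50_mature and bta-miR-2288 each lie 2 edits away. novel336_mature had 275, 735 and 795 counts in the control cows against 173, 691 and 427 in the tested cows, at most 0.330 counts per 100 of bta-let-7b. novel50_mature had 9 to 62 counts per library. bta-miR-2288 had 47, 58 and 2 counts in the control cows against 2, 0 and 0 in the tested cows, with an unadjusted p of 0.0616 in edgeR (log2 fold change -5.16, 95% interval -10.6 to 0.29, adjusted p = 0.448). It had at most 0.0310 counts per 100 of bta-let-7b in any library, so its reads are few beside those of the member it resembles. Whether they are reads of bta-let-7b with sequence errors was not tested.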

How the data were processed

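Small RNAs of serum EVs from 6 cows were sequenced. After adapter trimming and quality filters, the authors aligned the reads to the cow genome, removed other RNA classes, named known miRNAs with miRBase and predicted further ones with miRDeep2. The submitters' processing notes name cutadapt 1.14, Bowtie and build ARS-UCD1.2. They deposited raw counts per miRNA, with no normalization. The values that the authors deposited as TPM are RPM, counts per 1e6 clean reads, since each equals the count times 1 constant per library. The counting tool is not given in the sources used here. The authors' fold changes and p-values in the deposited tables were not used, nor was the table of their called miRNAs.

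The main test was edgeR 4.0.16 in R 4.3.3 (TMM, estimateDisp, glmQLFit, glmQLFTest) on the 623 miRNAs with at least 10 counts over the 6 libraries, with Benjamini-Hochberg adjustment over all 623. The standard error was taken from the F statistic and the fold change. Total counts per library ran from 1277693 to 2176002. Shares and ratios were computed per library with Python 3.11.15, pandas 2.3.3 and SciPy 1.17.1. For these the test was an exact permutation of the group labels, two-sided. No p is given for the summed family. Plots were drawn with Matplotlib 3.10.9. Alternatives were limma 3.58.1 on log2(CPM + 1), DESeq2 1.42.0, no factors, RLE factors, no filter, filterByExpr, known miRNAs only, the replicate number as a block, other totals, pooled counts, and each library left out. Each tool was tested on simulated data. The libraries of a group differed from each other by far more than sampling noise, with a chi-square per degree of freedom of at least 96.1.

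The members and lists were chosen with earlier results of these data known. Named miRNAs are the members, 6 cluster partners (bta-miR-99a-3p, the sixth, was not analysed here), listed miRNAs with the same seed or within 2 edits of a member, the 3 known miRNAs with the most similar profile, and marker lists.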

Additional observations from a re-analysis of the deposited data

How the results depend on the processing

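Of 140 refitted fold changes of the members, 14 alternatives for each of 10 members, 132 kept their direction and 0 passed the threshold. The lowest unadjusted p was 0.00242, for bta-let-7a-5p without control cow 1, with an edgeR adjusted p of 0.206. In edgeR the unadjusted p of bta-let-7a-5p was also below 0.05 with the replicate block (0.0285), with known miRNAs only (0.0473) and without tested cow 2 (0.0270), and that of bta-let-7b without control cow 1 (0.0394). For bta-let-7c the log2 fold change became -0.0411 with DESeq2 and -0.0411 with RLE factors and -0.000765 without a filter, and ran from -0.0747 to 0.147 with single libraries left out. With single libraries left out, the range was -0.0173 to 0.520 for bta-let-7e, -0.195 to 0.0427 for bta-let-7f, -0.188 to 0.0531 for bta-miR-98, -0.183 to 0.802 for bta-miR-100 and -0.137 to 0.0595 for bta-miR-99b, which was also 0.0129 without factors and 0.00188 with known miRNAs only. The cause of these changes of sign was not tested.

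Over all miRNAs, 20 passed the threshold. The count was 13 with filterByExpr, which tested fewer miRNAs, 6 with known miRNAs only and 12 with the replicate block. Across miRNAs, the deviations of same-numbered cows had correlations of -0.058, -0.048 and -0.019. The labels name no pairing of the cows, and correlations over all miRNAs cannot decide whether there was one. With the block 0 members passed.

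Scaled to clean reads in place of known miRNA counts, the control mean of the family was 3.501% ± 1.29 (SD, n = 3). The tested mean was 2.33% ± 0.986 (SD, n = 3), and the groups overlapped. All known miRNAs together made up 14.8% of the clean reads in the control mean and 10.9% in the tested mean. The let-7a passenger strand, taken per 100 counts of all 9 members with the seed instead of bta-let-7a-5p (chosen after seeing the data), differed by 0.0212 in place of 0.0865 because the denominator is larger, and the tested mean was 2.46 in place of 2.78 times the control mean. The arm ratio difference was 0.0447 without tested cow 1 and 0.116 without tested cow 2. Leaving red blood cell miRNAs out of the total, or adding the 2 newly predicted miRNAs with the seed, both also chosen after seeing the data, changed the difference in summed share to -1.90 and -2.02 percentage points. Depth limits bta-let-7a-3p most, with 39 to 135 counts per library.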

Other observations

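In each of the other marker lists the summed shares of the groups overlapped. The white blood cell miRNAs (4 of 4 listed) summed to 0.0196% to 0.0386% of the known counts in the control cows and 0.0124% to 0.0439% in the tested cows. The liver miRNAs (3 of 3), among them bta-miR-122, summed to 0.107% to 0.159% and 0.113% to 0.202%. The epithelial miRNAs (5 of 5), led by bta-miR-200c and bta-miR-200a, reached 7.39% to 8.83% and 8.73% to 9.29%, which is less than the family in every library. The striated muscle miRNAs (3 of 3) summed to 0.00013% to 0.000904% in the control cows and to 0.00481%, 0.000266% and 0.00345% in tested cows 1 to 3. In edgeR 0 miRNAs of these lists passed the threshold, and bta-miR-133a, with 1 count over the 6 libraries, was below the filter and not tested.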
